A study of Mus musculus with 2 samples.

Results

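Cx3cr1-positive CD8 T cells were taken from tumours as cell barcodes that carried the transcript of the chemokine receptor Cx3cr1 but none of the effector marker Klrg1. A barcode counted when it had at least 500 detected genes and under 10% of its UMIs (unique molecular identifiers, each standing for 1 captured transcript) from mitochondrial genes. It also needed a UMI of some CD3 gene (Cd3d, Cd3e, Cd3g), a UMI of Cd8a or Cd8b1, at least 2 UMIs of Cx3cr1 and no UMI of Klrg1. There were 2044 such barcodes, 1151 of 7866 in the control library and 893 of 10111 in the NK-depleted library, out of 17977 in all. The cells were thus selected on their measured UMIs of Cx3cr1, Klrg1, CD3 and CD8 genes, and the values of those genes are given as a description only.

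The cells came from wild-type mice bearing MC38 tumours, which grow from a mouse colon carcinoma line, and live CD8+ T cells were sorted from the tumours on day 9 after implantation. One library came from mice treated with an antibody against NK1.1, which removes natural killer (NK) cells, and the other from control mice. The treatment label of the control is PBS, its library name carries the abbreviation Iso, so which injection the controls were given is unclear from the labels. How many mice were pooled for either library is not stated, so each condition is 1 library with no replicate. The design text names the effect of NK cells on CD8 T cell differentiation as the question.

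CX3CR1 is the receptor for the chemokine CX3CL1, which is made as a membrane-bound protein on endothelium and other cells. On CD8 T cells it marks antigen-experienced effector cells, and in lasting infections and tumours it is found on cells that have left the progenitor state, which TCF-1 (encoded by Tcf7) maintains. KLRG1 marks short-lived effector cells, so barcodes with a Klrg1 UMI were kept apart. Macrophages, monocytes and some NK cells also carry CX3CR1.

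Members had median totals of 20409 UMIs in the control and 18016 UMIs in the NK-depleted library, well above the medians of 9834 and 11227.5 UMIs in all Cx3cr1-negative CD3+CD8+ barcodes without Klrg1. Each member was therefore set beside 1 Cx3cr1-negative barcode of the same library with nearly the same UMI total, called matched barcodes below. The matched medians were 20428 and 18017 UMIs, but the top of the control range was not fully matched, with 90th percentiles of 46626 UMIs in members and 37209 UMIs in matched barcodes. Median mitochondrial shares were 2.48% and 2.77% in members and 2.43% and 2.85% in matched barcodes. The libraries shared 391 barcode names, of which 42 were members in the control and 6 in the NK-depleted library. No doublets were removed, and 22.8% of control and 19.3% of NK-depleted members lay among the deepest 8% of CD3+CD8+ barcodes of their library.

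The T cell label held: the constant region of the receptor alpha chain, Trac, was seen in 99.7% of control and 99.6% of NK-depleted members. The 11 macrophage and monocyte markers summed to 23.2 and 45.6 CPM (UMIs per 1000000 UMIs summed over the class) in members and 25.2 and 15.96 CPM in matched barcodes of the control and NK-depleted libraries. The 8 dendritic cell markers summed to 218 and 304 CPM in members and 443 and 118 CPM in matched barcodes. Of the dendritic cell markers, H2-Ab1 sat in few barcodes: 10 barcodes held 89.6% of its UMIs in control members. Some macrophage or monocyte marker was seen in 24.2% and 23.5% of members and 24.0% and 21.4% of matched barcodes. A dendritic cell marker was seen in 21.1% and 21.4% against 17.5% and 20.0%. The 6 macrophage genes later used to leave barcodes out were seen in 10.2% and 8.29% of members and 7.30% and 6.38% of matched barcodes. The 5 NK cell markers summed to 64.0 and 89.1 CPM in members against 127 and 128 CPM in matched barcodes, and Ncr1, the NKp46 receptor that defines NK cells, was at 0 in the NK-depleted members. The gamma delta T cell markers summed to 6.09 and 16.5 CPM in members and 17.2 and 35.8 CPM in matched barcodes. Endothelial markers summed to 16.5 and 12.3 CPM in members. The lists for CD4 T cells, B cells, neutrophils, fibroblasts, tumour epithelium and erythroid cells each summed to at most 3.82 CPM in members.

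Cx3cr1 (ENSMUSG00000052336, chromosome 9, 119901616 to 120069879, minus strand, protein coding, GRCm38 annotation) was held at low counts by most members. The median was 4 UMIs in the control and 3 UMIs in the NK-depleted library, and the highest barcodes had 30 and 36 UMIs. Exactly 2 UMIs were found in 291 control and 333 NK-depleted members, and 5 or more in 457 and 247. Just outside the threshold, 596 control and 732 NK-depleted barcodes had 1 Cx3cr1 UMI. Summed over members, Cx3cr1 stood at 199 CPM (control) and 188 CPM (NK-depleted), so the summed level of the members was nearly the same. Another 69 control and 72 NK-depleted barcodes had at least 2 Cx3cr1 UMIs together with Klrg1 and were left out; they were 141 of the 482 Klrg1-positive CD3+CD8+ barcodes.

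**Figure D1:**
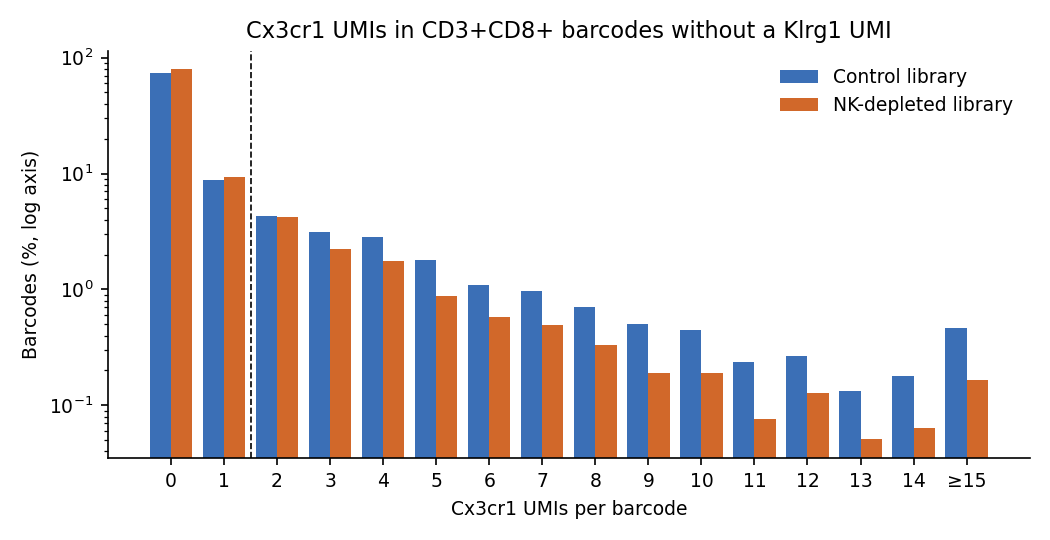
Percent of CD3+CD8+ barcodes without a Klrg1 UMI (log axis) at each number of Cx3cr1 UMIs, by library, with 15 or more pooled. Members lie right of the dashed line. The 2-UMI bars of the libraries are about level, while most bars above them are higher in the control.

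As deposited, members made up 17.1% of the 6724 CD3+CD8+ barcodes without Klrg1 in the control (95% exact interval 16.2 to 18.0) and 11.4% of 7859 in the NK-depleted library (10.7 to 12.1). Since a deeper barcode is likelier to show a second UMI, the share was also taken after thinning to 5500 UMIs, which 6078 of 6724 control and 7103 of 7859 NK-depleted barcodes reached; shallower barcodes were left out. After thinning the shares were 6.70% (6.08 to 7.35) in the control and 4.28% (3.82 to 4.78) in the NK-depleted library. The share was thus lower in the NK-depleted library at equal depth, by values of 1 library each. These intervals, like all others here, cover only the counting of barcodes or UMIs, with no spread between mice or libraries. Without barcodes holding Mki67 or Top2a the thinned shares were 4.96% (4.21 to 5.81) and 3.97% (3.23 to 4.84), with overlapping intervals. Barcodes with UMIs of Ccr7 and Lef1, genes of naive and central memory T cells, were taken as background. Their thinned shares of members were 4.87% (3.55 to 6.50) in the control and 2.29% (1.55 to 3.25) in the NK-depleted library. Their median totals were 16714 and 13706 UMIs, against 12306 and 13071 UMIs for all barcodes that entered the thinned shares. The control share of members thus lay above this background with overlapping intervals, and the NK-depleted share lay above it without overlap. As deposited the background was 17.5% in the control, level with the members' share, and 8.09% in the NK-depleted library. The unthinned control share thus does not stand out from it. The Ccr7 and Lef1 barcodes used for the detection shares below held Gzmb in 60.9% (control) and 87.7% (NK-depleted). They held Mki67 or Top2a in 25.8% and 47.2%. Many thus carried effector or cell division transcripts, so this is not a background of resting naive cells. A second background, B cells, gave 0 of 4 and 0 of 3 barcodes, too few to read (upper bounds 60.2% and 70.8%).

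Members differed from depth-matched Cx3cr1-negative T cells in many receptor, effector and cell division genes. They held more transcript of the inhibitory receptors Lag3 and Havcr2, of costimulatory receptors, of perforin and of genes of mitosis. They held less of the progenitor factor Tcf7, of the dendritic cell chemokine Xcl1, of part of the type I interferon-response genes and of Ly49 receptors. Counts were summed per library and class, and edgeR's quasi-likelihood test with library as a block compared the classes over 12515 genes. At a Benjamini-Hochberg adjusted p under 0.05, 1069 genes were higher in members (8.54% of those tested) and 1004 lower (8.02%). Of these, 235 were at least 1.5-fold higher (1.88%) and 369 at least 1.5-fold lower (2.95%). The shares of 8.54% and 8.02% are the background for the counts of list genes given below. The fit had 1 residual degree of freedom, because the libraries are the only samples. The p-values measure how far the class difference varied between the libraries, with that spread shared across genes. The libraries differ in treatment, so this is not a spread between replicates. With DESeq2 the calls were 460 higher and 267 lower, and without barcodes holding Mki67 or Top2a they were 447 and 373.

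**Figure D2:**
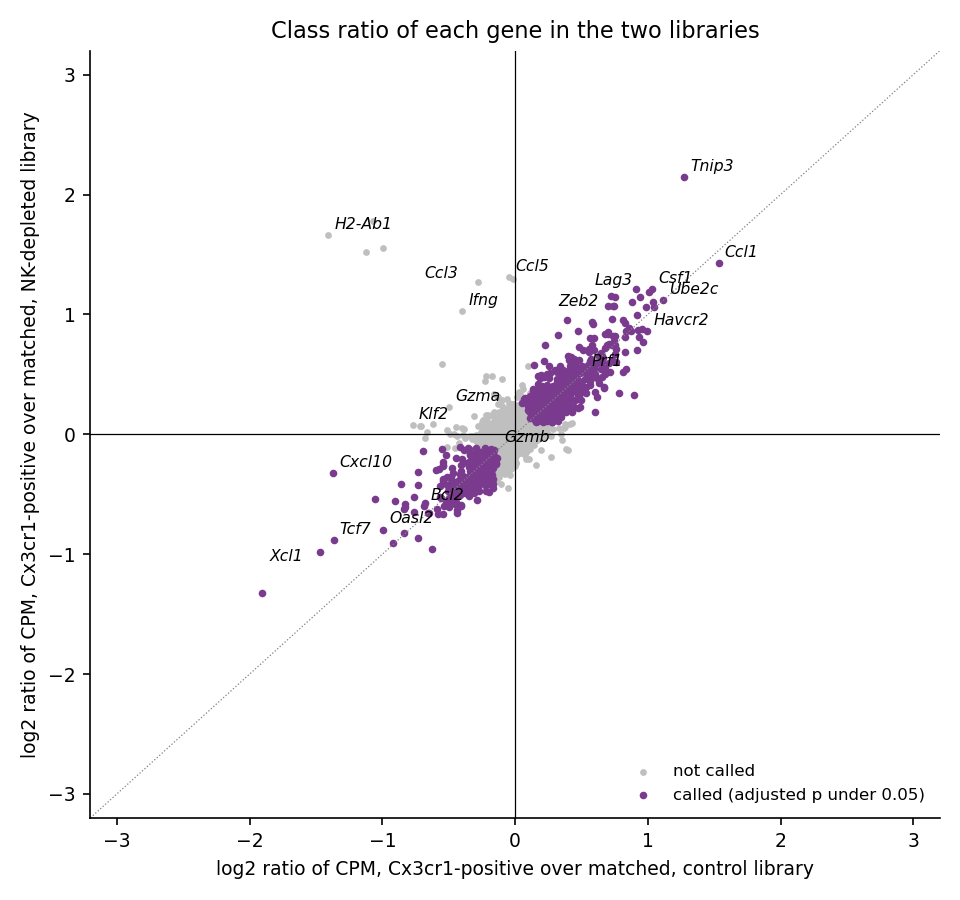
Each point is a gene of at least 50 CPM in some class. The axes give the log2 ratio of CPM in Cx3cr1-positive over matched barcodes in the control (x) and NK-depleted (y) library, purple marks called genes, and the dotted line marks equal ratios. Tnip3, Ccl1 and Lag3 lie high in both libraries and Xcl1 and Tcf7 low in both, while Ccl5, Ccl3, Ifng and H2-Ab1 lie high in the NK-depleted library only.

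Inhibitory receptors, which restrain T cells under lasting antigen, were among the clearest differences. Lag3 (chromosome 6, 124904361 to 124911705), which binds MHC class II, stood at 640 CPM in control members against 318 CPM in matched barcodes, and at 477 against 209 CPM in the NK-depleted library. The fitted log2 fold change was 1.12 (SE 0.05, adjusted p = 4.61e-05, edgeR quasi-likelihood). Havcr2, which encodes TIM-3, stood at 214 against 107 CPM in the control and 214 against 118 CPM in the NK-depleted library (log2 fold change 0.95, SE 0.05). Pdcd1, the receptor PD-1, stood at 278 against 184 CPM and 247 against 152 CPM (0.66, SE 0.05). In all of these genes both members' values lay above both matched values. Of the 14 tested genes of the inhibitory receptor and exhaustion list, 8 were higher (Lag3, Havcr2, Pdcd1, Tigit, Ctla4, Entpd1, Cd101 and Nr4a2) and 1 lower (Lilrb4a). The median log2 fold change was 0.48, beside -0.00088 over all genes tested. Tox, a factor of the exhaustion program, was not called, at 70.3 against 65.8 CPM in the control and 31.8 against 21.5 CPM in the NK-depleted library (adjusted p = 0.074, edgeR). Tigit was not called by DESeq2 (adjusted p = 0.22) or without Mki67 or Top2a barcodes (edgeR, adjusted p = 0.11).

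The same difference was visible barcode by barcode at equal depth. After thinning members and matched barcodes to 7800 UMIs, Lag3 was detected in 94.98% of control members (93.5 to 96.2) and 69.7% of matched barcodes, and in 88.0% and 57.3% in the NK-depleted library. Havcr2 was detected in 63.6% of control members and 33.4% of matched barcodes, and in 66.6% and 35.9% in the NK-depleted library. None of these intervals overlapped between the classes. Barcodes with Ccr7 and Lef1, thinned alike, had Havcr2 in 10.4% and 13.8% and Lag3 in 36.5% and 28.6%, at median totals of 14486 and 13453 UMIs. Havcr2 without Tcf7 or Slamf6 was seen in 51.1% of control members and 26.9% of matched barcodes, and in 54.9% and 30.6% in the NK-depleted library. The reverse pattern, Tcf7 or Slamf6 without Havcr2, was seen in 13.2% against 30.8% and in 10.7% against 23.9%. Before thinning, Havcr2 was seen in 78.1% and 76.3% of members and 46.8% and 50.4% of matched barcodes.

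Costimulatory receptors moved the same way as the inhibitory ones. Icos, a CD28 family receptor, stood at 443 against 253 CPM in the control and 404 against 208 CPM in the NK-depleted library (log2 fold change 0.90, SE 0.05, adjusted p = 0.00011, edgeR). Tnfrsf4 (OX40) and Tnfrsf18 (GITR) had log2 fold changes of 0.77 and 0.65. Of 12 tested genes, 8 were higher (Cd28, Icos, Tnfrsf4, Tnfrsf9, Tnfrsf18, Tnfrsf1b, Cd27 and Cd2) and 0 lower, with a median of 0.41. In the list of 16 early T cell receptor response genes, 8 were higher and 2 lower: Irf4, a factor induced with receptor signal strength, was higher (0.89), as were Nr4a1, Nr4a3 and Egr3, while Myc (-0.80) and Cd69 were lower. With DESeq2, Egr3 and Nr4a3 were not called (adjusted p = 0.10 and 0.058). The shares over all genes tested, 8.54% higher and 8.02% lower, stand beside the early response counts and the cytokine receptor counts that follow. Of 16 cytokine receptor genes, 7 were higher and 1 lower. The chains of the IL-18 receptor were among the higher ones, Il18r1 at 279 against 172 CPM and 214 against 128 CPM, and Il18rap at 193 against 117 CPM and 155 against 92.4 CPM. Il12rb2 had a log2 fold change of 0.67 and Il7r, the IL-7 receptor of long-lived cells, 0.39 (SE 0.04). Il7r was detected in 80.7% against 62.5% of control barcodes after thinning and in 76.5% against 67.0% of NK-depleted ones, but without Mki67 or Top2a barcodes it was not called (log2 fold change 0.32, edgeR adjusted p = 0.061).

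**Figure D3:**
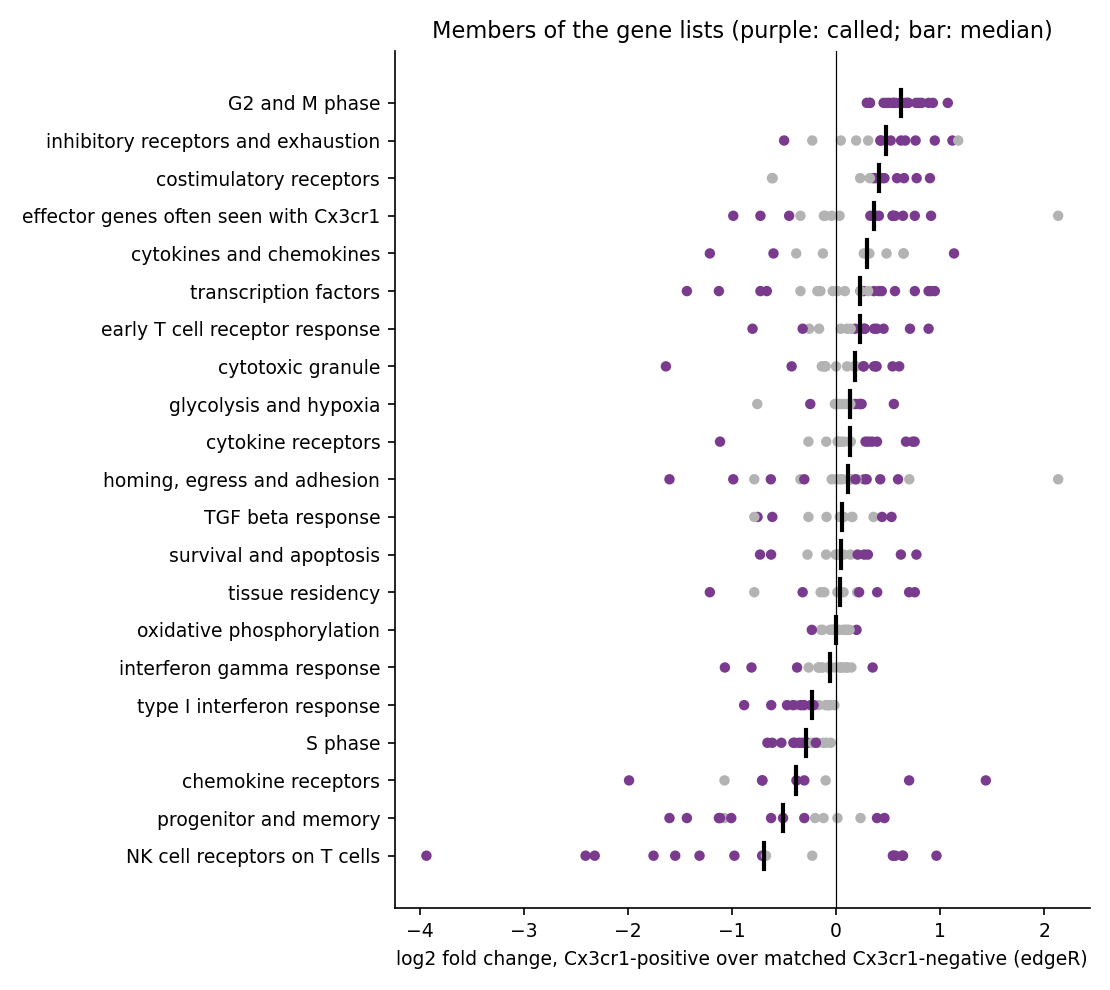
Fitted log2 fold change of each tested gene of the 21 lists, members over matched barcodes, with called genes in purple, other genes in grey and a black bar at the list's median. Every gene of the G2 and M phase list lies right of 0, and the NK receptor list splits into a group above 0 and a longer tail below it.

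Effector genes that often accompany Cx3cr1 were higher in part. Zeb2, a repressor that drives terminal effector cells, stood at 90.3 against 54.1 CPM in the control and 73.2 against 34.8 CPM in the NK-depleted library (log2 fold change 0.91, SE 0.08, adjusted p = 0.00042, edgeR). Of 19 tested genes of the effector list, 10 were higher, among them Zeb2, Tbx21, Prdm1, Klrd1 and Prf1, and 3 lower, Klf3, S1pr1 and Ly6c2; the median was 0.36. Tbx21, the factor T-bet, differed little, at 71.2 against 55.6 CPM and 58.6 against 46.6 CPM (0.36, SE 0.06). It was not called without Mki67 or Top2a barcodes (adjusted p = 0.066, edgeR). S1pr5, an egress receptor of circulating effector cells, was at most 0.611 CPM in any class. Klf2, an activator of S1pr1, was not called, at 51.2 against 87.4 CPM in the control and 67.5 against 64.0 CPM in the NK-depleted library (adjusted p = 0.20).

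Perforin was called higher, while no granzyme of the granule list was. Prf1, which forms the pore that lets granzymes into the target, stood at 508 against 353 CPM in the control and 570 against 398 CPM in the NK-depleted library (0.54, SE 0.04, adjusted p = 0.00029, edgeR), and it was detected in 81.9% against 60.9% and 81.6% against 64.7% of thinned barcodes. The Ccr7 and Lef1 background was 41.5% and 47.5%. The granule serine protease Gzmb stood at 2028 against 2213 CPM and 2930 against 3178 CPM and was not called (-0.10, adjusted p = 0.0997). Gzmc was lower, at 116 against 161 CPM and 402 against 534 CPM (-0.43, SE 0.04), but without the deepest 8% of barcodes its log2 fold change was 0.22 and not called. Gzma, Gzmk, Gzmd, Gzme and Gzmf were not called either. Of these, Gzmf stood at 518 against 405 CPM in the control and 1615 against 1670 CPM in the NK-depleted library. Gzme was somewhat higher in members of both, at 48.9 against 43.6 CPM and 102 against 90.4 CPM (0.19, edgeR adjusted p = 0.058). Of 18 tested granule genes, 7 were higher (Prf1, Nkg7, Serpinb9, Serpinb6b, Srgn, Cst7 and Fasl) and 2 lower (Gzmc and Gzmg), with a median of 0.18.

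Progenitor and memory genes were lower in members, with 8 of 15 tested genes called lower and 2 higher (Il7r and Cd27), and a median of -0.51. Tcf7 (chromosome 11, 52252371 to 52283014), the gene of TCF-1, stood at 28.1 against 72.5 CPM in the control and 27.0 against 49.7 CPM in the NK-depleted library (-1.13, SE 0.10, adjusted p = 0.00049, edgeR). Id3, Lef1, Ccr7, Tnfsf8, Il6ra and the survival gene Bcl2 were also among the lower genes; Il6ra was not called by DESeq2 (adjusted p = 0.053). Bcl2 stood at 153 against 247 CPM and 230 against 348 CPM. Slamf6, another progenitor marker, was not called, at 28.6 against 31.4 CPM and 18.6 against 16.3 CPM. After thinning, Tcf7 was detected in 12.2% of control members (10.3 to 14.3) against 27.1% of matched barcodes, and in 12.8% (10.6 to 15.3) against 25.1% in the NK-depleted library. No cell type that lacks Tcf7 or Il7r was set beside their detection shares.

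Receptors that guide T cells between blood, lymph node and tissue were split. S1pr1, the sphingosine receptor that lets T cells leave tissue, stood at 15.4 against 36.2 CPM in the control and 16.2 against 26.7 CPM in the NK-depleted library (-0.99, SE 0.11, adjusted p = 0.0011, edgeR). Of the 9 tested chemokine receptors other than Cx3cr1, 5 were lower, namely Ccr2, Ccr7, Ccr9, Cxcr3 and Cxcr4, and 2 higher. The higher ones were Cxcr6, the receptor for CXCL16, at 517 against 350 CPM and 430 against 246 CPM (0.70, SE 0.06), and Ccr8, at 8.76 against 3.90 CPM and 4.23 against 1.09 CPM. Ccr9, a gut homing receptor, stood at 7.86 against 29.4 CPM in the control and 0.764 against 5.03 CPM in the NK-depleted library; 10 barcodes held 71.5% of the UMIs of the control matched class. In the homing list, 5 of 21 tested genes were higher (S1pr4, Itgav, Itgb2, Selplg and Cd44) and 4 lower, among them S1pr1, Ccr7 and Itgb7. In the tissue residency list, 4 of 12 were higher (Cxcr6, Rgs1, Rgs2 and Prdm1) and 2 lower (Cd69 and Xcl1). Beside the counts of these lists stand 8.54% higher and 8.02% lower over all genes tested. Counts this small are not read as a trait of either list. Itgae, the CD103 integrin chain, was at most 9.02 CPM in any class and was not called (adjusted p = 0.34).

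NK cell receptors divided by family. The CD94 and NKG2 genes were higher: Klrd1 stood at 1195 against 770 CPM in the control and 996 against 652 CPM in the NK-depleted library (0.64, SE 0.04, adjusted p = 0.00018, edgeR), and Klrc1, Klrc2, Klrk1, Klre1 and Klri2 were also called higher. The Ly49 genes, receptors for MHC class I, were lower. Klra7 stood at 7.31 against 21.5 CPM and 8.10 against 32.6 CPM (-1.75, SE 0.11), and Klra1, Klra3, Klra4, Klra6 and Klra9 were called lower with it, as were Klrb1c, which encodes the NK1.1 antigen, and the adaptor Fcer1g. Klra9 was not called without Mki67 or Top2a barcodes (adjusted p = 0.18, edgeR). In all, 6 of 16 tested genes were higher and 8 lower. Klra7 was seen in 3.56% of control members against 8.60% of matched barcodes and 5.71% against 11.9% in the NK-depleted library, so few cells carried it. The gamma delta and NK cell markers given above were also lower in members, and their part in this was not tested. Ly49 genes are close paralogs, so the assignment of UMIs among them is uncertain.

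A few secreted factors were called, in both directions. Ccl1, the ligand of CCR8, stood at 71.8 against 24.8 CPM in the control and 36.8 against 13.7 CPM in the NK-depleted library (log2 fold change 1.51, SE 0.07). Csf1, a growth factor of macrophages, stood at 75.2 against 36.8 CPM and 61.0 against 26.3 CPM (1.13, SE 0.07). Both genes were higher in members of both libraries, and Ccl1 was carried by a minority, 18.7% of control and 9.85% of NK-depleted members before thinning. For Ccl1, 10 barcodes held 46.7% of the UMIs of control members and 57.3% of those of NK-depleted members. In matched barcodes the 10 highest held 47.4% and 82.2%. Xcl1, a chemokine for cross-presenting dendritic cells, was lower, at 59.1 against 164 CPM and 76.0 against 150 CPM (-1.21, SE 0.10). The 10 highest barcodes of each class held 41.1% to 48.2% of the Xcl1 UMIs. Of 10 tested cytokine and chemokine genes, Csf1 was called higher and Xcl1 and Csf2 lower, beside 8.54% higher and 8.02% lower over all genes tested. Counts this small are not read as a trait of the list. Ccl3, Ccl4, Ccl5 and Ifng were not called and are taken up with the comparison of the libraries.

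The highest fold change among the named genes of at least 50 CPM was that of Tnip3. This inhibitor of NF-kB signalling stood at 52.0 against 21.5 CPM in the control and 34.0 against 7.67 CPM in the NK-depleted library (1.61, SE 0.16, adjusted p = 0.00059, edgeR). Rgs16, a brake on G protein signalling, stood at 462 against 225 CPM and 305 against 142 CPM (1.09, SE 0.04). Sdcbp2, a PDZ domain protein, Serpine2, a serine protease inhibitor, and Ptprs, a receptor tyrosine phosphatase, had log2 fold changes of 1.06, 1.06 and 0.97. Maf, a transcription factor, had 0.95 (SE 0.07). Of 22 tested transcription factors, 10 were higher (among them Zeb2, Prdm1, Batf, Irf4, Ikzf3 and Maf) and 4 lower (Eomes, Id3, Klf3 and Tcf7). Among the largest negative differences, Fam241a, Gnl3 (a nucleolar GTPase), Timm8a1 (mitochondrial protein import) and Gpr18 (a G protein-coupled receptor) had log2 fold changes between -0.90 and -0.72. Timm8a1 was not called without Mki67 or Top2a barcodes (edgeR adjusted p = 0.077). Spp1 (osteopontin) also ranked here, at 26.4 against 40.7 CPM and 31.8 against 61.8 CPM. One matched control barcode held 571 of the 1065 Spp1 UMIs of its class, and the log2 fold change was 0.96 without the deepest 8% of barcodes and 0.42 without shared barcode names.

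Cell division genes differed by phase. All 20 genes of the G2 and M phase list were higher in members, with a median of 0.62, and 14 of 20 S phase genes were lower, with 0 higher and a median of -0.29. Ube2c, which directs the breakdown of mitotic proteins, stood at 205 against 94.7 CPM in the control and 286 against 131 CPM in the NK-depleted library (1.14, SE 0.05, adjusted p = 4.44e-05, edgeR). Cenpf and Cenpa, proteins of the centromere, and Cdc25b, a phosphatase that opens mitosis, had log2 fold changes of 1.07, 1.04 and 1.01. Ung and Cdc6, which act in DNA repair and replication start, had -0.66 and -0.61, and Ung was not called by DESeq2 (adjusted p = 0.059). Mki67 or Top2a was detected in 58.2% of thinned control members (55.2 to 61.2) against 51.0% of matched barcodes (48.0 to 54.0), and in 72.0% (68.8 to 75.1) against 68.0% (64.6 to 71.2) in the NK-depleted library. In barcodes with Ccr7 and Lef1 these shares were 25.8% and 47.2%. Without depth matching the S phase median was 0.09, and without barcodes holding Mki67 or Top2a the G2 and M phase median was -0.03 and Ube2c was not called (0.18, edgeR adjusted p = 0.70).

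Some of the receptor and progenitor gene differences remained when barcodes holding Mki67 or Top2a were left out. Among the 332 control and 201 NK-depleted members with no UMI of Mki67 or Top2a, matched again by depth, the log2 fold changes were 1.64 for Lag3, 1.70 for Havcr2, 1.14 for Pdcd1, 1.253 for Prf1 and -1.79 for Tcf7. Each was larger in size than over all members and was called. Tigit, Il7r and Klra9 were not called in this subset (edgeR adjusted p = 0.11, 0.061 and 0.18). A barcode without a UMI of Mki67 or Top2a may still come from a dividing cell, so a part of cell division was not tested. The inhibitory receptor median was 0.64 and the progenitor median -0.80 in this subset. Of the 2073 genes called in the full comparison, 1838 were tested in it, 622 were called in the same direction and 128 had the opposite sign.

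Some interferon-response genes were lower in members. In the type I interferon list, 8 of 19 tested genes were lower (Oas1a, Oasl1, Oasl2, Rsad2, Irf7, Usp18, Bst2 and Rtp4) and 0 higher, with a median of -0.23. Oasl2, an antiviral protein of the OAS family, stood at 34.3 against 68.3 CPM in the control and 28.8 against 50.1 CPM in the NK-depleted library (-0.88, SE 0.07, adjusted p = 0.00026, edgeR). With DESeq2, Oas1a and Rsad2 were not called (adjusted p = 0.079 and 0.69). In the interferon gamma list, 3 of 20 were lower (Gbp2, Iigp1 and Tgtp1) and 1 higher (Irf8), beside 8.02% lower and 8.54% higher over all genes tested. Cxcl10, a ligand of CXCR3 that interferon induces, stood at 51.3 against 133 CPM and 66.4 against 82.9 CPM (-0.85, SE 0.19, adjusted p = 0.023), and was not called by DESeq2 (adjusted p = 0.56). The type I median was -0.42 within the control library and -0.04 within the NK-depleted library; the interferon gamma median was -0.22 and 0.06; neither difference between the libraries was tested.

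Metabolic, survival and TGF beta genes were called in both directions. Of 18 tested glycolysis and hypoxia genes, 5 were higher, led by the glucose transporter Slc2a3 (0.55, SE 0.08), and 1 lower, Pdk1, which DESeq2 did not call (adjusted p = 0.69). The median was 0.13. Of 19 oxidative phosphorylation genes, 1 was higher and 1 lower, a share at or under that of all genes tested. In the survival list, 5 of 14 were higher, among them the BCL-2 family genes Bcl2a1b and Bcl2a1d and the pro-death gene Bcl2l11, and 2 lower, Bcl2 and the pro-death gene Bbc3 (DESeq2 adjusted p = 0.23). In the TGF beta list, 2 of 12 were higher (Tgif1 and Tgfb1) and 2 lower (Smad3 and Ldlrad4), and DESeq2 called neither of the lower genes (adjusted p = 0.32 and 0.21). Over all genes tested, 8.54% were called higher and 8.02% lower.

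For Lag3 and Tcf7, much of the difference was already present at 1 Cx3cr1 UMI, seen among barcodes of 10000 to 30000 UMIs with no test. For the mitosis gene Ube2c in the control library it was not. Within that window Lag3 stood at 337, 579, 638, 747 and 742 CPM in control barcodes with 0, 1, 2, 3 to 4 and 5 or more Cx3cr1 UMIs, and at 226, 386, 462, 529 and 605 CPM in the NK-depleted library. Tcf7 stood at 88.8, 35.4, 29.1, 26.4 and 21.6 CPM in the control and at 56.4, 34.96, 20.3, 32.0 and 11.6 CPM in the NK-depleted library. For both genes the barcodes with 1 UMI, just outside the threshold, lay between those with 0 and 2 UMIs. Ube2c stood at 80.0, 67.8, 90.3, 125 and 263 CPM in the control and at 90.6, 187, 236, 212 and 503 CPM in the NK-depleted library, so in both libraries its highest level lay with 5 or more UMIs. Median totals still climbed inside the window, from 14406 to 19867 UMIs in the control and from 14918 to 19280 UMIs in the NK-depleted library.

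**Figure D4:**
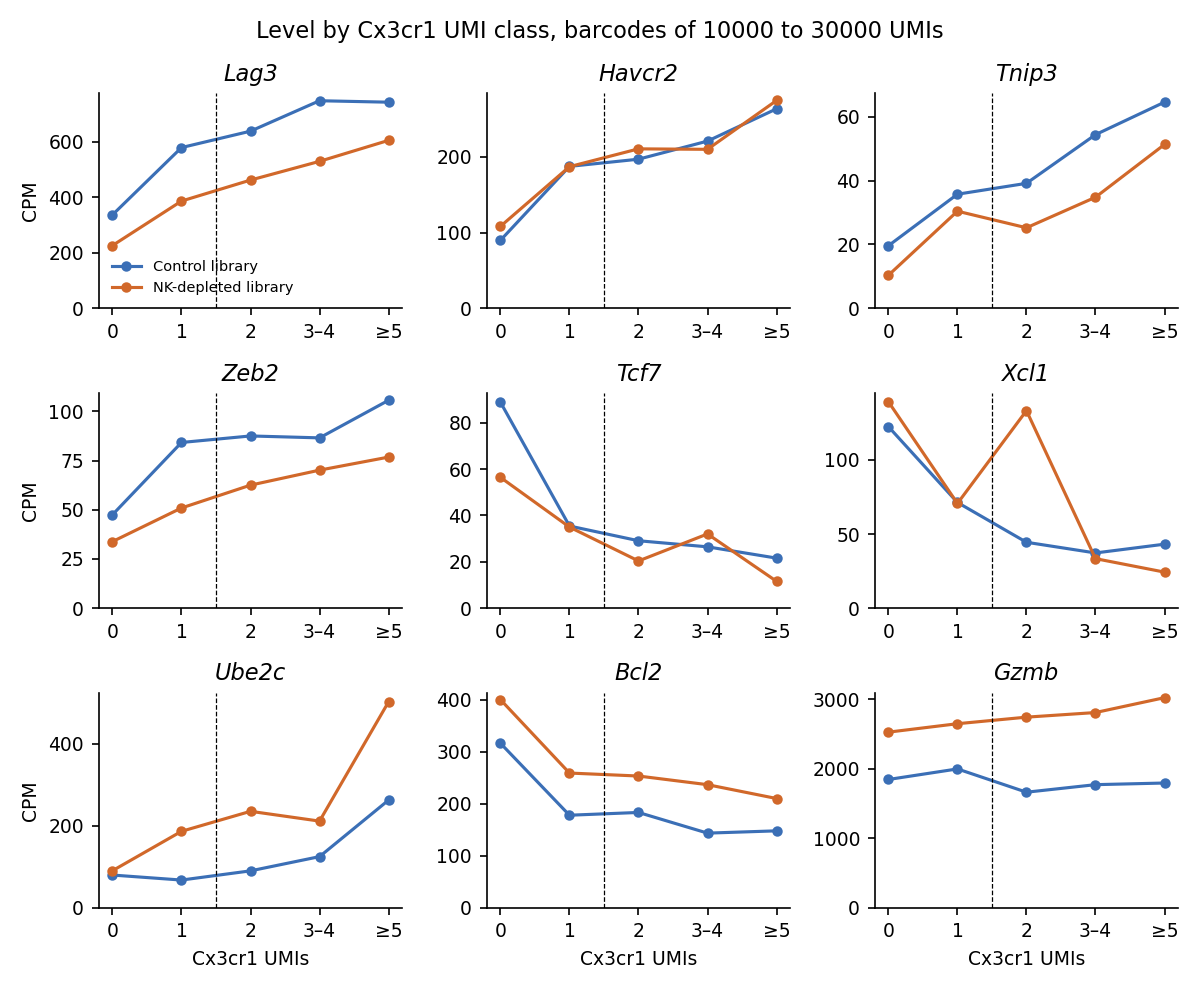
CPM of 9 genes in barcodes of 10000 to 30000 UMIs, by the number of Cx3cr1 UMIs, for each library (no test). Members lie right of the dashed line. Lag3, Havcr2 and Zeb2 climb and Tcf7 and Xcl1 drop between 0 and 1 UMI (Xcl1 is back at 133 CPM at 2 UMIs in the NK-depleted library), while Gzmb stays within 1664 to 1999 CPM in the control and 2528 to 3024 CPM in the NK-depleted library.

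The libraries could be compared among members only as values, with 1 library per condition and no test. Of 2848 genes of at least 50 CPM in members of some library, NK-depleted members held 27 at a ratio of 1.5 or more (0.948%), and 23 were lower by that factor (0.808%). Of the genes past this ratio, the higher ones made up 54.0%, against 65.4% with TMM factors and 69.1% with median-of-ratios factors. Without the deepest 8% of barcodes 89 were higher and 24 lower. Among matched barcodes, of 2891 genes 37 were higher (1.28%) and 80 lower (2.77%).

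Granzymes of the chromosome 14 cluster led the genes that were higher in NK-depleted members. Gzmc stood at 116 CPM in control and 402 CPM in NK-depleted members, a ratio of 3.48 (3.34 to 3.62), beside 3.31 in matched barcodes. Gzmf stood at 518 and 1615 CPM, a ratio of 3.12 (3.06 to 3.18), beside 4.13 in matched barcodes, and Gzmd and Gzme had ratios of 2.21 and 2.09 among members. The metallothionein Mt1 and the interferon-induced membrane proteins Ifitm2 and Ifitm3 had ratios of 2.57, 2.54 and 2.14, close to the 2.56, 2.75 and 1.88 of matched barcodes. The MHC class II gene H2-Ab1 (2.28) is a dendritic cell marker, and 10 barcodes held 94.2% of its UMIs in NK-depleted members.

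Among genes of at least 50 CPM in members of some library, Tox had the lowest ratio, 0.452 (0.412 to 0.495), from 70.3 to 31.8 CPM, beside 0.326 in matched barcodes. Itga4, the alpha 4 integrin, stood at 135 and 62.5 CPM (0.462), Ccr7 at 72.9 and 37.1 CPM (0.509) and Ccl1 at 71.8 and 36.8 CPM (0.513). Ifit3b, Nrp1, Slfn5 and the calmodulin-binding Nrgn had ratios of 0.565 to 0.586. For Tox, Itga4, Ifit3b, Nrp1, Slfn5 and Nrgn the ratio was nearer 1 in members than in matched barcodes. Lag3 and Havcr2 had ratios of 0.746 and 0.9997 among members, and Gzmb 1.44.

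Ccl5, Ccl4, Ccl3 and Ifng behaved otherwise in members than in matched barcodes; Ccl3 and Ifng are named after their values were seen. Ccl5 (chromosome 11, 83525778 to 83530518), a chemokine that draws T cells and other leukocytes, stood at 2055 CPM in control members and 1586 CPM in NK-depleted members, but at 2122 and 638 CPM in matched barcodes. Its ratio of members to matched barcodes was therefore 0.968 in the control and 2.49 in the NK-depleted library. Ccl4 stood at 1001 and 905 CPM in members and 1012 and 370 CPM in matched barcodes, and Ccl3 at 302 and 284 CPM against 366 and 118 CPM. Ifng, the main cytokine of type 1 T cells, stood at 473 and 502 CPM in members and 624 and 247 CPM in matched barcodes. By summed CPM, the matched barcodes of the NK-depleted library were the low class in each of these 4 genes. The other 3 classes lay closer together in CPM, but the control matched sums of Ccl3, Ccl4 and Ifng sat partly in few barcodes. For Ccl4, the 10 highest barcodes held 36.7% of the UMIs in that class. After thinning, Ccl4 was detected in 71.8% of control members against 58.0% of matched barcodes, and in 62.5% against 45.1% in the NK-depleted library.

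Detection did not always follow the sums. Ccl5 was seen in 82.0% of thinned control members against 77.2% of matched barcodes, and in 71.6% against 56.0% in the NK-depleted library. Barcodes with Ccr7 and Lef1 held it in 74.4% and 58.0% of the control and NK-depleted barcodes, below the members' shares with no overlap of the intervals. Ifng was seen in 76.7% of thinned control members against 57.3% of matched barcodes, above the 30.4% of that background, although its CPM was lower in control members. In the control matched class 10 barcodes held 46.0% of the Ifng UMIs, and 1 of them held 1869, so no order of the control classes is read for Ifng. In the NK-depleted library the share (75.2% against 48.8%) and the CPM were both higher in members.

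Over 3014 genes, the library ratio in members was at least 1.5 times that in matched barcodes for 21 genes (0.697%) and lower by that factor for 0 genes (0%). It was 2.57 times as high for Ccl5, 2.47 for Ccl4, 2.92 for Ccl3 and 2.68 for Ifng. The other settings of members and matched barcodes gave 2.27 to 3.42 for Ccl5, 1.68 to 2.70 for Ccl4, 1.92 to 3.40 for Ccl3 and 1.78 to 4.51 for Ifng. The MHC class II genes Cd74, H2-Aa, H2-Eb1 and H2-Ab1 had values of 5.85 to 8.39, the highest of these 3014 genes. Without barcodes that held a macrophage or dendritic marker UMI the values were 2.50 for Ccl5, 2.603 for Ccl4, 2.61 for Ccl3 and 2.02 for Ifng. In that setting the control ratios of members to matched barcodes were 0.925 for Ccl5, 1.19 for Ccl4, 1.16 for Ccl3 and 0.946 for Ifng.

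**Figure D5:**
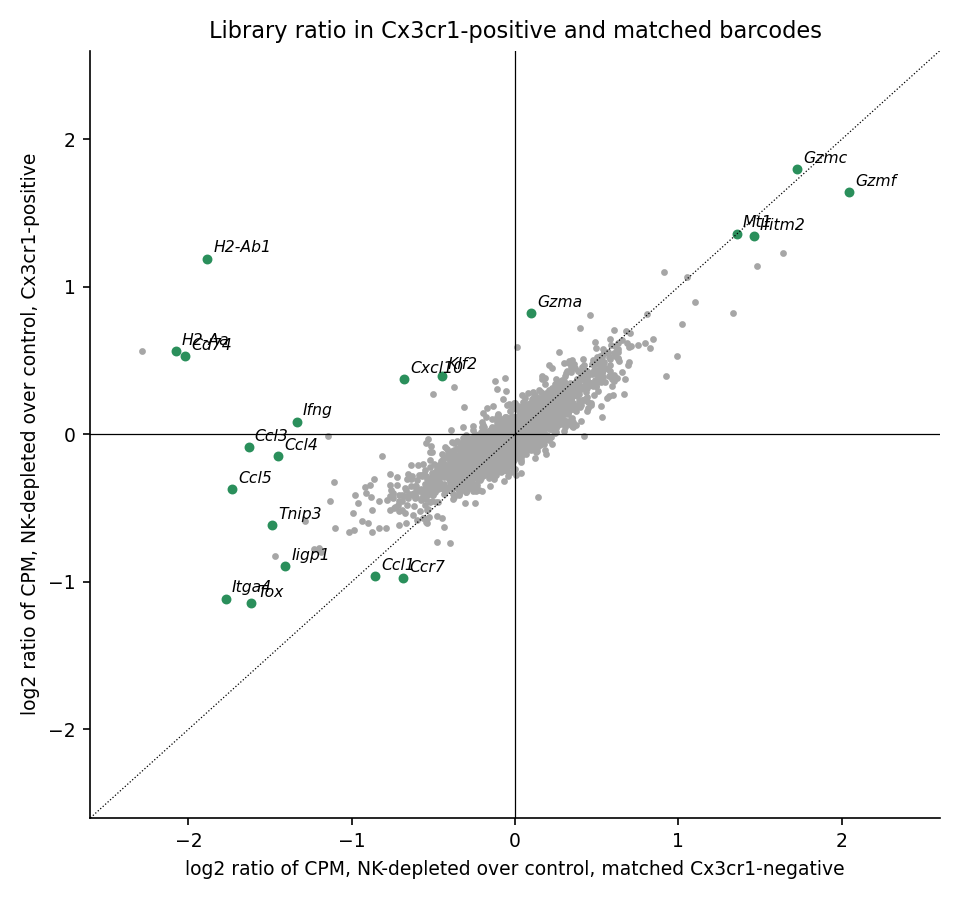
Each point is a gene of at least 50 CPM in some class. The axes give the log2 ratio of CPM, NK-depleted over control, in matched (x) and Cx3cr1-positive (y) barcodes, the dotted line marks equal ratios and green marks labelled genes. Gzmc, Mt1 and Ifitm2 lie near that line, while Ccl5, Ccl4, Ccl3 and Ifng lie well above it, low in matched barcodes and near 0 in members.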

How the data were processed

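The authors deposited raw UMI counts per gene and barcode for 2 single-cell 5' libraries; per the file headers the counting tool was Cell Ranger 6.1.2. The submitters' processing notes name Seurat 4.0.6 and the mm10 build, and no source used here gives the gene annotation. The deposited libraries hold 7866 and 10111 barcodes with 108106687 and 128853437 UMIs. No cell annotation was used, no clustering was done and no doublet caller was run. The members and gene lists were chosen with earlier results of these data known.

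Raw counts were summed per library over members (28877752 and 19635412 UMIs) and over as many matched Cx3cr1-negative barcodes (26155729 and 19297205 UMIs). Each matched barcode had 0 UMIs of Cx3cr1 and Klrg1 and the nearest UMI total in its library, without replacement. The sums were tested with edgeR 4.0.16 (glmQLFit and glmQLFTest, TMM factors, filterByExpr, library as a block) in R 4.3.3, with Benjamini-Hochberg adjustment over 12515 genes. The 7 genes of the selection rule were left out of the test. Cells are not replicates: the fit has 1 residual degree of freedom, and its spread is shared across genes. With 1 library per condition, ratios between libraries carry exact conditional binomial intervals and no p. Shares carry exact Clopper-Pearson intervals at the 95% level. PCR and sampling of cells are outside the ratio intervals. The share intervals treat barcodes as independent draws. No interval covers a spread between mice or libraries. Thinning for detection left out 55 control and 88 NK-depleted barcodes of each class that had under 7800 UMIs.

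On simulated counts for the comparison of members with matched barcodes (12515 genes), the same code gave 15 false calls. It recovered 44% of 50 genes changed 1.25-fold, 98% at 1.5-fold, 100% at 2-fold and 100% at 3-fold. These rates apply to the simulated counts. In the real counts the class ratio of some genes differed between libraries, and some sums sat in few barcodes. The 15 false calls are thus not read as an error rate of the 2073 real calls, of which DESeq2 kept 727. Named genes were the 12 largest and 12 smallest fold changes among called genes of at least 50 CPM with the same direction in both libraries, the 8 highest and 8 lowest library ratios, up to 4 genes per list and a fixed set. Others (Ccl3, Ifng, Klrc1, Klrk1, H2-Aa, H2-Eb1, Cd74 and most list members given by name) were named after their values were seen. Alternatives changed the matching, the Cx3cr1 threshold, normalization, filters, tool (DESeq2 1.42.0), cycling barcodes, the deepest barcodes, macrophage marker barcodes and, added after seeing the data, shared barcode names and dendritic marker barcodes. Gene coordinates come from the GRCm38 reference annotation. Some genes that the naming rule picked are not reported here, and the background of barcodes with Ccr7 and Lef1 was defined after seeing the data.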

Additional observations from a re-analysis of the deposited data

Results flagged for a closer look

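Among the genes named in the text, 12 had a ratio of members to matched barcodes above 1 in one library and below 1 in the other, with both counting intervals away from 1. For none of them was this difference between libraries tested. The ratio was 0.311 in the control and 2.16 in the NK-depleted library for the integrin gene Itgae, 0.968 and 2.49 for the chemokine Ccl5, and 0.824 and 2.41 for Ccl3. Ifng had 0.758 and 2.04. The control ratios of Ccl3, Ccl5 and Ifng depended on the setting. With 3 matched barcodes per member they were 1.24, 0.714 and 1.11, and at 3 or more Cx3cr1 UMIs 0.873, 1.04 and 0.760. In the control matched class 10 barcodes held 48.3% of the Ccl3 UMIs. Ccl3 was detected in 39.9% of thinned control members against 22.3% of matched barcodes, so no order of the control classes is read for it. The ratio was 0.709 and 1.17 for Gzma, 1.28 and 0.967 for Gzmf, and 0.859 and 1.40 for Gzmk, all granule proteases. The integrin gene Itga4 had 0.887 and 1.40. The MHC class II genes had 0.377 and 3.17 (H2-Ab1), 0.459 and 2.87 (H2-Aa), 0.477 and 3.44 (H2-Eb1), and 0.501 and 2.94 (the invariant chain gene Cd74). For H2-Ab1, the 10 highest barcodes of each class held 81.6% to 94.2% of the UMIs. None of these genes was called in the comparison of members with matched barcodes by edgeR.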

How the results depend on the processing

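No paired analysis was possible because each condition is 1 library whose number pairs it with no other; the library itself was the block. Against 1069 higher and 1004 lower calls, the counts were 674 and 496 with 3 matched barcodes per member (whose control median was 12281 UMIs), 447 and 373 without Mki67 or Top2a barcodes (fewer barcodes and genes tested), and 460 and 267 with DESeq2. Of the 2073 calls, DESeq2 kept 727, and 1845 of 1988 tested were kept without shared barcode names. The following values reversed sign, and the cause was not tested. Without depth matching the log2 fold changes were 0.059 for Spp1, 0.23 for Gzmc, 0.45 for Cd81, 0.0088 for Cdc6, 0.057 for Atp5b, 0.12 for Gzma, 0.093 for Gzmb, -0.26 for Gzmk, -0.42 for Slamf6 and -0.28 for Itga4. Without Mki67 or Top2a barcodes they were -0.54 for Cenpf, 1.94 for Spp1, 0.0025 for Gzmc, -0.47 for Cdc20, 0.18 for Gzmb, -0.086 for Slamf6, -0.014 for Itga4 and 0.074 for Itgb1. Without the deepest 8% they were 0.96 for Spp1, 0.22 for Gzmc, 0.23 for Cd81, 0.018 for Gzmb, -0.0043 for Slamf6 and -0.046 for Itga4. With 3 matched barcodes they were 0.14 for Cd81, 0.11 for Gzma, -0.084 for Gzmk, -0.15 for Slamf6 and -0.056 for Itga4. Without shared names they were 0.42 for Spp1, 0.30 for Cd81 and -0.012 for Slamf6. Without macrophage marker barcodes they were -0.027 for Gzmf and -0.020 for Slamf6, and without macrophage or dendritic ones -0.030 for Slamf6 and -0.00092 for Itga4. Slamf6 was -0.039 at 1 or more Cx3cr1 UMIs and -0.0083 without TMM factors. List medians reversed to -0.0064 for granule genes without macrophage marker barcodes, to -0.066 for homing and 0.093 for S phase without depth matching, and to -0.026 for G2 and M phase without cycling barcodes. The oxidative phosphorylation median was 0.065 with 3 matched barcodes, 0.13 without matching, 0.023 at 1 or more UMIs, 0.10 without cycling barcodes, 0.045 without the deepest 8% and 0.0018 without a filter. The TGF beta median was -0.069, -0.17, -0.014, -0.21 and -0.041 under the first 5 of these. Between libraries, 83 genes were higher and 80 lower at 10 CPM, 13 and 9 at 100 CPM, 89 higher without the deepest 8%, 57 higher after thinning and 15 lower at 3 or more UMIs. The share of members was 17.1% (control) and 11.4% (NK-depleted) unthinned, 3.06% and 1.96% at 3 or more UMIs, 16.5% and 11.4% at 1 or more, and 4.96% and 3.97% without cycling barcodes, where the intervals overlapped. The control share was the higher one in each setting tried.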

Other observations

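T cell receptor beta variable segments could be called, from at least 2 UMIs, in 249 control and 132 NK-depleted members and in 202 and 116 matched barcodes. Trbv2 was carried by 15.7% of the called control members (11.4 to 20.8) and 19.3% of matched barcodes, and by 28.8% (21.2 to 37.3) and 26.7% in the NK-depleted library. Trbv26 was carried by 11.2% (7.60 to 15.8) of called control members against 6.44% (3.47 to 10.8) of matched barcodes, and by 12.1% (7.09 to 18.9) against 7.76% (3.61 to 14.2) in the NK-depleted library. The intervals of members and matched barcodes overlapped for both segments in both libraries, and cells of one clone share a segment.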
